A study of Mus musculus with 4 samples.

Results

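The genes described here are 9 antiviral effectors that cells switch on after interferon: Isg15, Usp18, Ifit1, Ifit2, Ifit3, Mx1, Mx2, Rsad2 and Cmpk2. They were taken by gene symbol from the deposited expression files, and all 9 were found among 23284 symbols. Messenger RNA was sequenced from living mouse stromal cells of the large intestine, sorted for podoplanin and against the leukocyte marker CD45, the endothelial marker CD31 and the epithelial marker EpCAM. The series has 4 groups with 1 library each: wild type and Rag2 KO mice of strain BALB/c, and wild type and IL-10 KO mice of strain C57BL/6J. Rag2 encodes a recombinase that T and B cells need, and IL-10 is an anti-inflammatory cytokine. The sources used here do not give ages, the number of animals per library or the design of the knockout alleles. The title of the series names suppression of type I interferon signalling by IL-10 in fibroblasts as its subject. The question put to these genes was therefore how high they stood in each knockout library against the wild type of the same strain.

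Type I interferon binds the receptor chains IFNAR1 and IFNAR2, and the kinases JAK1 and TYK2 then activate transcription factors. With IRF9 these bind a DNA sequence, the interferon-stimulated response element, before the start of their target genes. Isg15 encodes a ubiquitin-like protein that is joined to other proteins, and Usp18 encodes the protease that removes it and also dampens signalling at IFNAR2. The IFIT proteins bind viral RNA or associate with each other, Mx proteins are dynamin-like GTPases, Rsad2 encodes viperin, which makes a chain-terminating nucleotide, and Cmpk2 encodes a mitochondrial nucleotide kinase. In intestinal stroma, as in most tissues, such genes are expressed at a low level without infection and are commonly read as a record of interferon exposure.

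RefSeq promoter windows of GRCm38.p6, from 250 bases before to 50 bases after the annotated start, were at hand for 6 of the 9 genes, namely Isg15, Ifit1, Ifit2, Ifit3, Rsad2 and Cmpk2. They are shown because such genes are known for this element and because the 6 genes differed in how far the libraries stood apart. The 170 bases before the start are printed 5′ to 3′ on the strand of the gene, and capitals mark matches to the core of the response element, taken as 2 copies of GAAA (or of TTTC, on the other strand) separated by any 2 bases. For Ifit2 the first of 2 annotated starts is shown. For Ifit2, Ifit3 and Cmpk2 the start used lies inside the gene span given below. Windows placed by the first base of that span were not made.
Isg15 (chr4:156200819-156200988, minus strand): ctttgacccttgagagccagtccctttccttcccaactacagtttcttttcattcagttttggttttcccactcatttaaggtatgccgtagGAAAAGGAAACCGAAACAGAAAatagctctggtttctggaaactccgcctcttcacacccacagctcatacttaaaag
Ifit1 (chr19:34640719-34640888, plus strand): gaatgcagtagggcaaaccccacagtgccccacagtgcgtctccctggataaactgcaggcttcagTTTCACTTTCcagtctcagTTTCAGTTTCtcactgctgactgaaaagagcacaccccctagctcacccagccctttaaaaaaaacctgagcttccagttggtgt
Ifit3 (chr19:34583359-34583528, plus strand): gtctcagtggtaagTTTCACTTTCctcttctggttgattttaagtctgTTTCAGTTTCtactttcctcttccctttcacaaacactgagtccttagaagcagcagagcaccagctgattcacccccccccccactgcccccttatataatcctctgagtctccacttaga
Rsad2 (chr12:26456453-26456622, minus strand): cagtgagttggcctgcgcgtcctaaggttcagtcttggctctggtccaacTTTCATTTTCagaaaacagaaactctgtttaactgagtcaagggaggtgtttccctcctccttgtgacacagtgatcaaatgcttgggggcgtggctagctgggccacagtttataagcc
Ifit2 (chr19:34550524-34550693, plus strand): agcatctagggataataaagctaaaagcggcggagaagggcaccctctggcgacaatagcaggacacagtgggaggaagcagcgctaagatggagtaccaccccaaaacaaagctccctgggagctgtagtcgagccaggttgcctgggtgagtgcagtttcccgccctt
Cmpk2 (chr12:26469045-26469214, plus strand): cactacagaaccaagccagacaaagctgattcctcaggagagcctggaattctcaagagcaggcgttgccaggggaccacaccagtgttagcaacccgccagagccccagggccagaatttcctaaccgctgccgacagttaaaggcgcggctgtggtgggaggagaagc

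Isg15 held 3 overlapping matches in its window, between positions -78 and -57 from the start. Ifit1 had 2 matches, at -104 to -95 and -85 to -76. Ifit3 also had 2, at -156 to -147 and -122 to -113, with the same letters as those of Ifit1. Rsad2 had 1 match, at -120 to -111. No match lay in the window of Cmpk2 or in either window of Ifit2, which says only that these letters are not there. Among 32851 promoter windows of the same length, 3.44% held at least 1 match and 0.225% held at least 2. Of 32 other type I interferon-stimulated genes with a window, 14 held a match, and of 8 housekeeping genes 0 did. Among related families, 5 of 5 guanylate-binding protein genes and 4 of 8 oligoadenylate synthetase genes with a window held a match. Another pattern, TTCNNNGAA with N any base, was also searched. It matched in 1 of the 6 genes, Ifit2 at -241 to -233 from its first start, and in 8.30% of all windows.

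**Figure D1:**
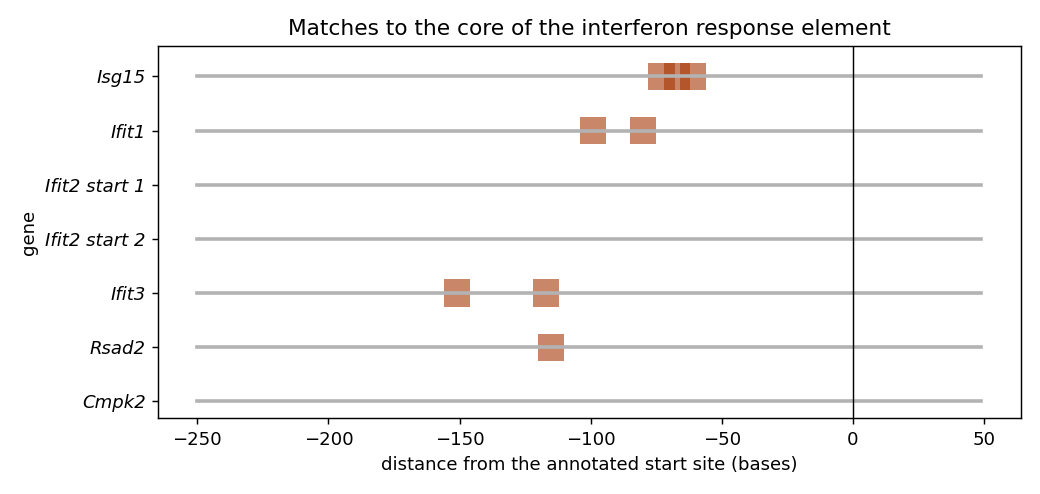
Positions of the response element core in the promoter windows of 6 effector genes. The x axis is the distance in bases from the annotated start site (0), grey lines are the searched windows and brown boxes are matches on either strand (overlapping boxes are darker); Isg15 carries 3 matches, Ifit1 and Ifit3 carry 2 each, Rsad2 carries 1, and the windows of Ifit2 and Cmpk2 carry 0.

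The values are FPKM, fragment numbers scaled to transcript length and to library size, so levels of different genes can be set side by side. How library size was scaled was not stated, so medians of all genes near 0 serve below as a reference only. Steps between the lowest values placed the depth, on that scale, at 8300000 to 9884000 fragments per library, a range of 1.19-fold. As each group is a single library, replicate error is unknown, no test between groups was made, and "higher" or "lower" describes these libraries. Intervals of quotients are 95% exact binomial intervals on estimated fragments and cover counting error only. In bulk RNA, fewer cells of a type and less RNA per cell cannot be told apart. The sort marker gene Pdpn had 158 to 292.5 FPKM, and the fibroblast genes Dcn and Col3a1 had at least 5544 and 1558 FPKM in every library. Transcripts of the deleted genes do not check the labels: Il10 had 129.9 FPKM in the library labelled IL-10 KO against 3.33 in its wild type, and Rag2 was listed at 0 except in the library labelled Rag2 KO (0.712). "IL-10 knockout" and "Rag2 knockout" below mean the libraries so labelled. Libraries also differed in sex-linked transcripts, since Xist was 23.02 and 44.9 FPKM in C57BL/6J wild type and IL-10 knockout but at most 0.105 in BALB/c, and Y-linked Ddx3y was 36.3, 31.5, 16.9 and 0.0269 FPKM in the BALB/c pair (wild type, knockout) and the C57BL/6J pair, in that order. Sex, genotype and individual animals therefore cannot be told apart in the comparison within C57BL/6J.

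Isg15 (chromosome 4, 156199424 to 156200818 in GRCm38) was by far the most abundant of the 9 transcripts, and its values in the strains were nearly superimposed. It had 43.9 FPKM (wild type) and 203 (Rag2 knockout) in BALB/c, and 44.4 (wild type) and 206 (IL-10 knockout) in C57BL/6J. Both knockout libraries stood well above both wild types. The IL-10 knockout had 4.62 times the level of its wild type (interval 3.98 to 5.39), and the Rag2 knockout 4.63 times (4.03 to 5.35). On the scale of log2(FPKM + 1), used for all counts of genes, the ratios were 2.18 and 2.19. Isg15 alone made up 57.3% of the summed FPKM of the 9 genes in BALB/c wild type and 69.1% with the Rag2 knockout, against 55.0% and 68.2% in C57BL/6J wild type and the IL-10 knockout. Its annotated transcript is short (756 nt), so its level depends on the length correction more than that of the others.

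Usp18 (chromosome 6, 121245906 to 121270917), which reverses ISG15 conjugation, was far lower and its wild types were not alike. It had 3.14 FPKM in BALB/c wild type against 9.70 with the Rag2 knockout, and 4.75 in C57BL/6J wild type against 9.22 with the IL-10 knockout. The knockout libraries stood at about the same level, 0.950 for IL-10 over Rag2 with a counting interval from 0.738 to 1.21. For BALB/c over C57BL/6J wild type the quotient was 0.661, with an interval that ends close to 1 (0.450 to 0.983). Knockout over wild type was 3.09 in BALB/c (2.21 to 4.34) and 1.94 in C57BL/6J (1.42 to 2.67). Isg15 was 14.0 and 9.35 times as abundant as Usp18 in BALB/c and C57BL/6J wild type, and 21.0 and 22.3 times in the Rag2 and IL-10 knockouts.

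Genes that attach ISG15 were higher for some enzymes only. Of 5 listed genes, 2 were at least 2-fold higher in each knockout comparison and 0 lower. Over all genes compared, 10.1% were higher and 3.82% lower in the IL-10 comparison, and 4.42% and 2.03% in the Rag2 comparison. The activating enzyme gene Uba7 had 29.9 FPKM in the IL-10 knockout against 12.1 in its wild type, and 26.6 against 12.1 in the Rag2 comparison. The conjugating enzyme gene Ube2l6 had 56.3 against 27.3 FPKM (IL-10) and 73.8 against 21.2 (Rag2). The ligase gene Herc6 stayed below 2-fold with log2 ratios of 0.70 and 0.79. Trim25, which encodes a ligase of RIG-I signalling, had ratios of 0.94 (IL-10) and 0.17 (Rag2), and the ligase gene Arih1 had -0.12 and -0.52.

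The Ifit genes lie within 99.5 kb of chromosome 19, yet Ifit2 did not move with Ifit1 and Ifit3. Ifit1 (34640889 to 34650009) had 2.47 FPKM (wild type) and 15.6 (Rag2 knockout) in BALB/c, and 4.38 (wild type) and 24.6 (IL-10 knockout) in C57BL/6J. Its quotients were 5.63 (4.52 to 7.14) in the IL-10 and 6.31 (4.79 to 8.43) in the Rag2 comparison, and on the log2(FPKM + 1) scale its ratios were 2.25 and 2.26. Its level in C57BL/6J wild type was 1.77 times that in BALB/c wild type. In the IL-10 knockout it was 1.58 times that in the Rag2 knockout (1.38 to 1.81), but these libraries differ in both strain and deleted gene.

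Ifit3 (34583119 to 34588982) followed the same order of libraries. It had 2.69 FPKM in BALB/c wild type against 11.2 with the Rag2 knockout, and 5.05 in C57BL/6J wild type against 18.8 with the IL-10 knockout. Quotients were 3.72 in the IL-10 comparison (2.82 to 4.94) and 4.18 in the Rag2 comparison (2.95 to 6.03). The value is uncertain, because 51.2% of the 50-base windows of its annotated transcript also occur in the transcript of its neighbour Ifit3b, listed in the files as I830012O16Rik. That gene had 0.722, 2.34, 0.633 and 3.10 FPKM in the BALB/c pair (wild type, knockout) and the C57BL/6J pair, in that order, which is the same ranking of knockouts over wild types.

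Ifit2 (34550550 to 34576534), which can bind RNA and is linked to cell death, was the exception. It had 6.59 FPKM (wild type) and 10.1 (Rag2 knockout) in BALB/c, and 5.38 (wild type) and 6.30 (IL-10 knockout) in C57BL/6J. The IL-10 knockout was below the wild type of the other strain, so knockouts and wild types overlapped. Its quotient was 1.17 in the IL-10 comparison, with a counting interval that includes 1 (0.947 to 1.45), and 1.53 in the Rag2 comparison (1.29 to 1.80). The balance inside the cluster therefore turned over: Ifit1 stood at 0.375 and 0.814 times Ifit2 in BALB/c and C57BL/6J wild type, but at 1.55 and 3.91 times in the Rag2 and IL-10 knockouts. Ifit1 over Ifit3 moved much less, from 0.921 and 0.867 to 1.39 and 1.31. None of the 50-base windows of Ifit2 occur in another gene (0%), and 7.13% of those of Ifit1 do.

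The remaining genes of the cluster were close to the detection limit. Ifit1bl1 (listed as Gm14446), whose annotated span runs across Ifit1 on the opposite strand, had 0.25, 0.36, 0.114 and 0.949 FPKM in the BALB/c pair (wild type, knockout) and the C57BL/6J pair, in that order. Ifit1bl2 (listed as 2010002M12Rik) had 0.189 to 0.555 FPKM. At these depths 3 fragments of a 2000-nt transcript give 0.169 to 0.201 FPKM. The nearest coding genes with at least 1 FPKM outside the cluster, chosen by position, were Lipa (log2 ratio -0.50 in the IL-10 and -0.37 in the Rag2 comparison) and Slc16a12 (0.455 against 1.90 FPKM in the IL-10 and 0.845 against 1.59 in the Rag2 comparison). Neither was higher in a knockout.

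**Figure D2:**
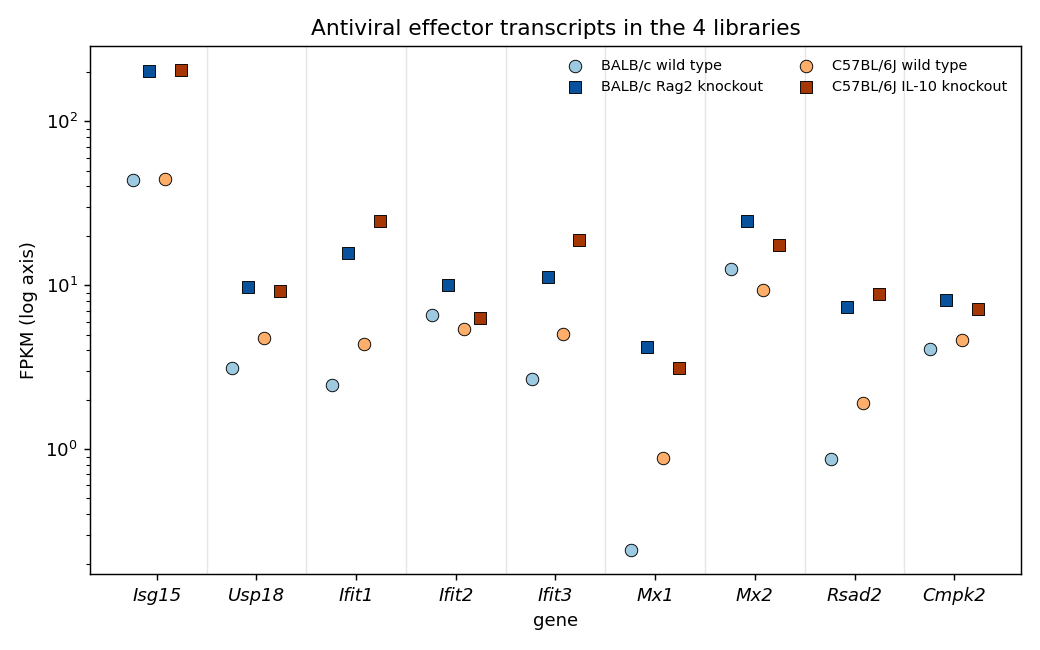
FPKM of the 9 effector genes (x axis) in each of the 4 libraries, on a logarithmic y axis. Circles are wild types, squares are knockouts, blue is BALB/c and orange to brown is C57BL/6J, with 1 library per point and no error bars. Squares lie above both circles for every gene except Ifit2, where the IL-10 knockout (6.30) lies below BALB/c wild type (6.59). The share of all genes with that order was not counted.

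Mx1 and Mx2 lie 1 after the other on chromosome 16 and encode related GTPases, but in the C57BL/6J reference both carry disrupting changes, and RefSeq lists each as a transcribed pseudogene. Mx1 (97447035 to 97462906) was the scarcest of the 9 in every library, with 0.242 FPKM in BALB/c wild type against 4.21 with the Rag2 knockout, and 0.886 in C57BL/6J wild type against 3.12 with the IL-10 knockout. The first of these stands for about 8 fragments and the third for about 24. The quotient was 3.52 in the IL-10 comparison (2.22 to 5.83) and 17.4 in the Rag2 comparison, where the interval is wide (8.16 to 39.2). On the log2(FPKM + 1) scale the ratios were 1.13 and 2.07, and that scale understates the change of a gene this low.

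Mx2 (97536081 to 97560901) was the second most abundant member in 3 of the libraries and moved less. It had 12.6 FPKM (wild type) and 24.5 (Rag2 knockout) in BALB/c, and 9.40 (wild type) and 17.7 (IL-10 knockout) in C57BL/6J. Each knockout was above both wild types, with quotients of 1.88 (1.57 to 2.26) in the IL-10 and 1.95 (1.68 to 2.25) in the Rag2 comparison. Mx2 was 52.1 times as abundant as Mx1 in BALB/c wild type and 10.6 times in C57BL/6J wild type, against 5.82 and 5.67 times in the Rag2 and IL-10 knockouts. The pair shares few sequences, 3.86% of the 50-base windows of Mx1 and 4.38% of those of Mx2. Between them lies Fam3b, an epithelial secreted factor, with 0.156, 0.481, 0 and 2.78 FPKM in the BALB/c pair (wild type, knockout) and the C57BL/6J pair, in that order. The flanking gene Bace2 had log2 ratios of -0.11 and 0.26, and Tmprss2, a protease gene of epithelial cells on the other side, had 9.35 against 2.67 FPKM in the IL-10 and 3.46 against 1.39 in the Rag2 comparison.

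Rsad2 and Cmpk2 are neighbours on chromosome 12 whose start sites lie 12.8 kb apart and point away from each other. Rsad2 (26442743 to 26456452) had 0.869 FPKM in BALB/c wild type against 7.38 with the Rag2 knockout, and 1.92 in C57BL/6J wild type against 8.88 with the IL-10 knockout. The quotient was 4.63 in the IL-10 comparison (3.52 to 6.12) and 8.49 in the Rag2 comparison (5.97 to 12.6). Cmpk2 (26469117 to 26479837) had 4.07 FPKM (wild type) and 8.13 (Rag2 knockout) in BALB/c, and 4.60 (wild type) and 7.15 (IL-10 knockout) in C57BL/6J, with quotients of 1.55 (1.22 to 1.96) and 1.998 (1.59 to 2.49). Knockouts were above both wild types for each gene, but the pair did not keep its proportion. Rsad2 was 0.214 and 0.417 times as abundant as Cmpk2 in BALB/c and C57BL/6J wild type, and 0.908 and 1.24 times in the Rag2 and IL-10 knockouts. The nearest expressed coding gene beyond Rsad2, Rnf144a, had log2 ratios of -0.54 and -0.47.

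The 4 genes with matches in the printed promoters, Isg15, Ifit1, Ifit3 and Rsad2, had log2 ratios from 1.71 to 2.25 in the IL-10 and from 1.73 to 2.26 in the Rag2 comparison. Ifit2 and Cmpk2, without a match to the core, had 0.19 and 0.54 in the former and 0.54 and 0.85 in the latter. With 6 genes, set side by side after their values were known, this is a description. For Ifit2 and Cmpk2, as for Ifit3, the start used lies inside the gene span, and windows placed by its first base were not made.

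**Figure D3:**
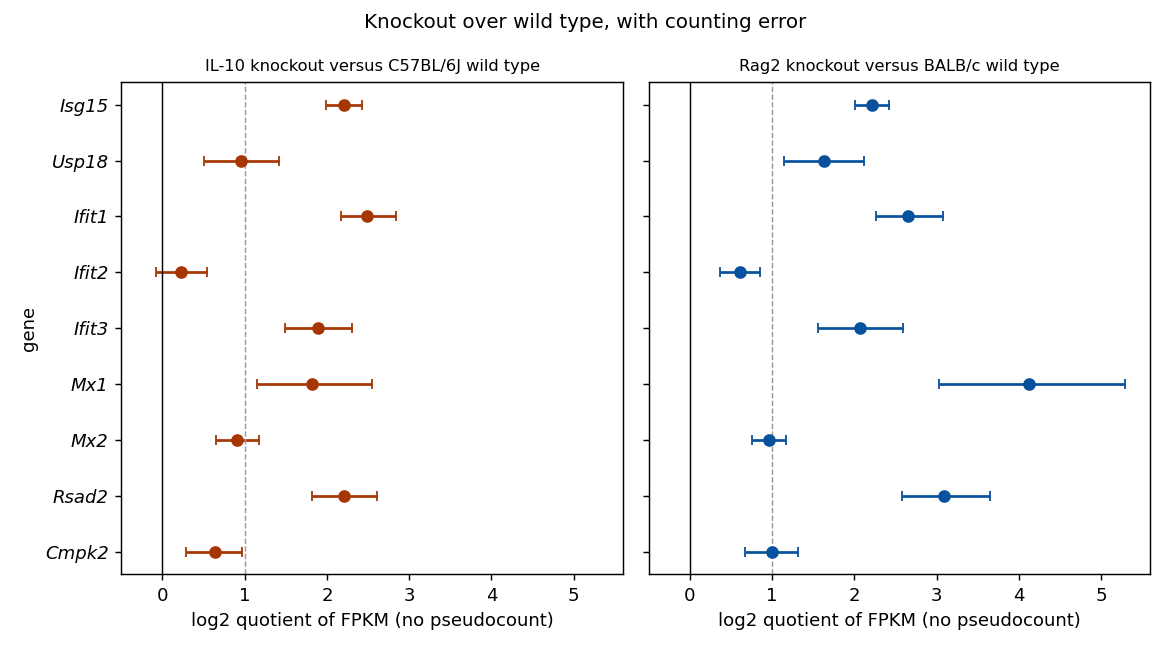
Quotient of FPKM, knockout over wild type of the same strain, for each effector gene (y axis) on a log2 x axis without pseudocount, in the IL-10 comparison (left) and the Rag2 comparison (right). Points are single-library quotients, bars are 95% counting intervals that hold no variation between animals, the solid line is no difference and the dashed line 2-fold; Ifit2 in the IL-10 comparison is the point whose bar reaches the solid line.

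By count, 5 of the 9 genes were at least 2-fold higher in the IL-10 knockout (Isg15, Ifit1, Ifit3, Mx1 and Rsad2) and 0 were at least 2-fold lower, where 10.1% of 12790 genes compared were higher and 3.82% lower. Genes were compared when they reached 1 FPKM in either library, and all 9 did in both knockout comparisons. In the Rag2 knockout 6 of 9 were at least 2-fold higher, the same 5 and Usp18, and 0 lower, where 4.42% of 12336 genes were higher and 2.03% lower. With libraries rescaled after leaving out small RNA genes, the counts over all genes in the Rag2 comparison became 675 higher and 663 lower in place of 545 and 251. The 5 shared genes passed in both comparisons, as did 3.30% of 12048 genes compared in both. At 4-fold the counts were 2 of 9 in the IL-10 and 4 of 9 in the Rag2 comparison, against 3.74% and 1.22% of all genes. The median log2 ratio of the 9 genes was 1.13 in the IL-10 and 1.73 in the Rag2 comparison, and that of all genes compared was -0.0018 and -0.0041. Ifit1 ranked 381 and Isg15 404 from the top in the IL-10 comparison. In the Rag2 comparison, with fewer high genes, they ranked 110 and 119.

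**Figure D4:**
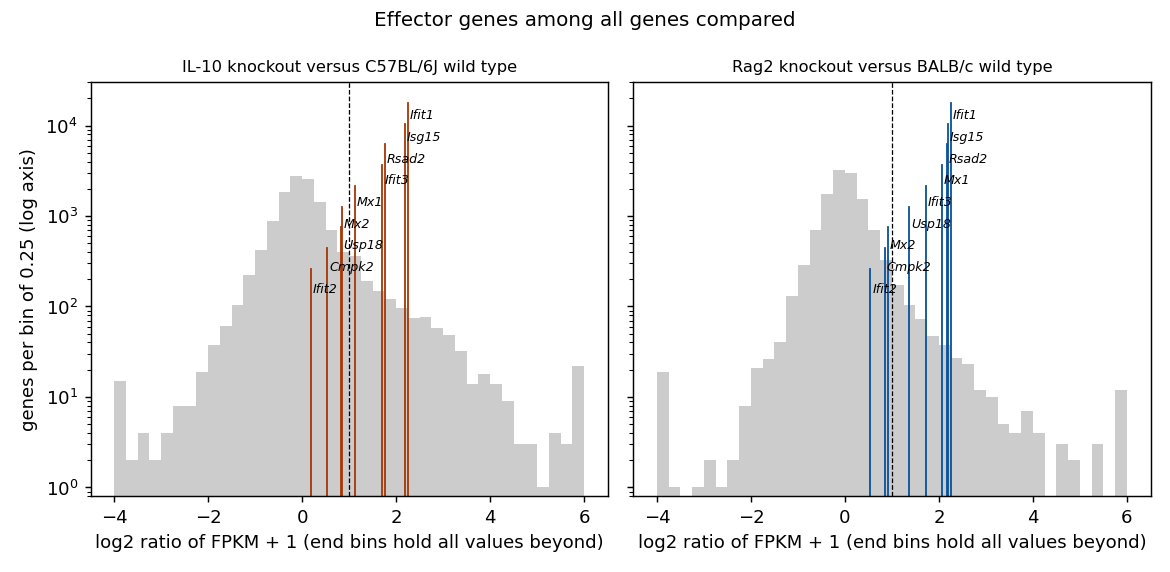
Distribution of log2 ratios of FPKM + 1 over all genes compared (grey bars, bins of 0.25, logarithmic count axis, with values beyond -4 and 6 pooled in the end bins) in the IL-10 comparison (left) and the Rag2 comparison (right). Coloured lines mark the 9 effector genes and the dashed line is 2-fold; the members run from 0.19 to 2.25 on the left and from 0.54 to 2.26 on the right, above the all-gene medians near 0.

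BALB/c wild type was lower than C57BL/6J wild type for 7 of the 9 genes and higher for Ifit2 and Mx2. The median log2 ratio was -0.31 for the 8 members that passed the filter and 0.0044 for all genes compared. Quotients of BALB/c over C57BL/6J were 0.273 for Mx1 (0.113 to 0.668), 0.453 for Rsad2 (0.287 to 0.688), 0.533 for Ifit3 (0.353 to 0.798) and 0.566 for Ifit1 (0.403 to 0.795). For Isg15 the quotient was 0.988, with an interval from 0.817 to 1.19. None of the 8 members that passed the filter was 2-fold apart on the log2(FPKM + 1) scale (0 higher, 0 lower), where 1.81% of 12290 genes were higher and 2.17% lower in BALB/c. At 4-fold 0 of 8 were higher, and 0.334% of all genes were. This comparison shares a library with each knockout comparison. Epithelial markers summed to 38.0 FPKM in BALB/c and 96.8 in C57BL/6J wild type, and pan-haematopoietic markers to 142 and 76.9. Strain, cell makeup and the difference in sex-linked transcripts cannot be told apart between these 2 libraries.

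The knockout comparisons share no library with each other, and their ratios were close for 4 genes and apart for others. The log2 quotient of the IL-10 comparison minus that of the Rag2 comparison was -0.0027 for Isg15 (approximate 95% counting interval -0.30 to 0.29), -0.16 for Ifit1 (-0.67 to 0.34), -0.17 for Ifit3 (-0.80 to 0.46) and -0.05 for Mx2 (-0.38 to 0.28). It was -2.30 for Mx1 (-3.55 to -1.06), -0.87 for Rsad2 (-1.52 to -0.23) and -0.67 for Usp18 (-1.31 to -0.03), the 3 genes whose interval leaves out 0. All 3 were lower in BALB/c wild type than in C57BL/6J wild type, but 7 of the 9 genes were. Among those 7 were Ifit1 and Ifit3, whose ratios were close. The wild-type values are also part of each ratio. For Ifit2 and Cmpk2 the differences were -0.38 and -0.36, with intervals that include 0. Whether these differences exceed the variation between animals was not tested.

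At the upstream end of the pathway, the type I ligand genes stayed below 1 FPKM and the receptor chains were less than 2-fold apart. Ifng, which encodes interferon-gamma and not a type I ligand, was higher in both knockouts. Among 18 interferon ligand genes found, only Ifng reached 1 FPKM: 11.7 in the IL-10 knockout against 0.114 in its wild type, and 3.61 in the Rag2 knockout against 0.301. Ifnb1 was listed at 0 in both wild types and at 0.183 and 0.212 FPKM in the Rag2 and IL-10 knockouts. Ifnk had 0.337 FPKM in the Rag2 knockout, Ifnab 0.515 and Ifnz 0.0949 in the IL-10 knockout, each listed at 0 in the other 3 libraries, and the remaining 13 ligand genes were listed at 0 in all 4. The receptor gene Ifnar1 had log2 ratios of 0.62 in the IL-10 and 0.08 in the Rag2 comparison, and Ifnar2 had 0.76 and 0.43. Tyk2 had 0.01 and -0.22, Jak1 0.34 and 0.23, and Irf9 0.37 and 0.07. Stat2, a signal transducer that interferon also induces, had 1.24 and 1.28. Socs1, an inhibitor of JAK signalling, had 1.34 and 0.83.

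Other type I interferon-stimulated genes were described by a list of 48, of which 42 were found. In the IL-10 comparison 26 of 42 compared passed 2-fold upward and 0 downward (median log2 ratio 1.08). In the Rag2 comparison 23 of 40 were higher and 0 lower, with a median of 1.26, and 22 genes were higher in both. Among the highest ratios in the IL-10 comparison were those of Zbp1, a nucleic acid sensor (3.75), and Ifi44 (2.21), and in the Rag2 comparison those of Zbp1 (3.76) and Oas2 (2.71). Oas1b was the lowest in both. Between the wild types 0 of 38 were higher and 1 lower. Of 12 housekeeping genes 0 were at least 2-fold higher or lower in either knockout comparison.

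Counts for related families were as follows. Of the oligoadenylate synthetases, which sense double-stranded RNA and partly overlap the list above, 6 of 7 compared were at least 2-fold higher in the IL-10 knockout (median 1.84) and 4 of 6 in the Rag2 knockout (median 1.51). Oas1a, Oas2 and Oasl1 had the highest ratios in the IL-10 comparison (2.13, 2.12 and 2.02), and Oas2, Oasl1 and Oasl2 in the Rag2 comparison (2.71, 1.88 and 1.78). Oas1b was the lowest, at 0.23 in the IL-10 comparison (3.81 against 3.09 FPKM) and below its wild type in the Rag2 comparison, at -0.44 (1.77 against 2.77 FPKM). The guanylate-binding proteins, which respond strongly to interferon-gamma, were at least 2-fold higher for 11 of 11 genes in both comparisons, with medians of 2.22 and 2.87. Gbp2, Gbp5 and Gbp4 led in the IL-10 comparison (3.36, 3.33 and 3.19), with Gbp1 lowest (1.22). Gbp4, Gbp11 and Gbp5 led in the Rag2 comparison (4.61, 3.18 and 3.17), with Gbp7 lowest (1.96).

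Markers of cells that the sort leaves out moved with the effector genes in part. In the IL-10 comparison 12 of 12 pan-haematopoietic markers were at least 2-fold higher and their summed FPKM went from 76.9 to 745, 9.68-fold. In the Rag2 comparison 0 of 12 were at least 2-fold higher, 1 was lower, and the sum went from 142 to 194, 1.37-fold. The summed FPKM of the 9 effectors went from 80.8 to 301 (3.73-fold) and from 76.6 to 294 (3.84-fold). Ptprc, which encodes CD45, had 43.1 against 3.34 FPKM in the IL-10 and 11.5 against 8.31 in the Rag2 comparison. None of the 12 pan-haematopoietic markers was at 0 in any library.

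Single leukocyte types went separate ways. B and plasma cell markers summed to 2.53 FPKM in the Rag2 knockout against 461 in its wild type, with 6 of 6 at least 2-fold lower and Pou2af1 at 0, and to 479 against 248 in the IL-10 comparison (5 of 6 higher). Summed T cell markers were 4.63 against 15.2 FPKM in the Rag2 comparison, with 2 of 6 at least 2-fold lower and 0 higher. There Cd3g was at 0 in the knockout, whereas Cd3e had 1.26 against 1.22 FPKM. In the IL-10 comparison the T cell sum was 89.9 against 6.79 FPKM (6 of 6 higher). Macrophage and monocyte markers were higher for 8 of 8 genes in the IL-10 comparison (1089 against 153 FPKM) and for 3 of 8 in the Rag2 comparison (580 against 290). Neutrophil markers were higher for 7 of 7 (3847 against 10.5 FPKM, with Ngp and Cxcr2 at 0 in wild type) and for 6 of 6 (246 against 24.6 FPKM, with Cxcr2 at 0 in wild type). Siglech, a gene of plasmacytoid dendritic cells, which are strong makers of type I interferon, had 2.77 against 0.209 FPKM in the IL-10 and 0.565 against 0.595 in the Rag2 comparison. The 5 markers of that type summed to 23.7 against 10.2 and 7.66 against 2.54 FPKM, mostly Klk1, which other cells also express, with 2 of 3 and 1 of 1 compared at least 2-fold higher. Cox6a2 was at 0 in both wild types and Ccr9 in C57BL/6J wild type.

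Epithelial markers were at least 2-fold higher for 10 of 10 genes in both knockouts, with sums of 373 against 96.8 FPKM (3.85-fold) in the IL-10 and 155 against 38.0 (4.09-fold) in the Rag2 comparison, and none was at 0 in any library. Epcam itself had 21.1 against 6.29 and 9.35 against 2.76 FPKM. Fibroblast markers summed to 11041 to 12285 FPKM in the 4 libraries, with 0 of 10 at least 2-fold higher in either comparison. In the IL-10 comparison 1 of 10 was at least 2-fold lower, Col6a1 (named after its value was seen) with 421 against 937 FPKM, and in the Rag2 comparison 0 were. Smooth muscle markers were lower, 261 against 606 FPKM in the IL-10 and 329 against 640 in the Rag2 comparison, with 4 of 5 and 3 of 5 at least 2-fold lower. Blood endothelial markers had 0.940 and 0.773 times the summed level of the wild type, and lymphatic endothelial markers 0.617 and 0.577 times. The part of leukocyte and epithelial RNA in the effector values was not tested.

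**Figure D5:**
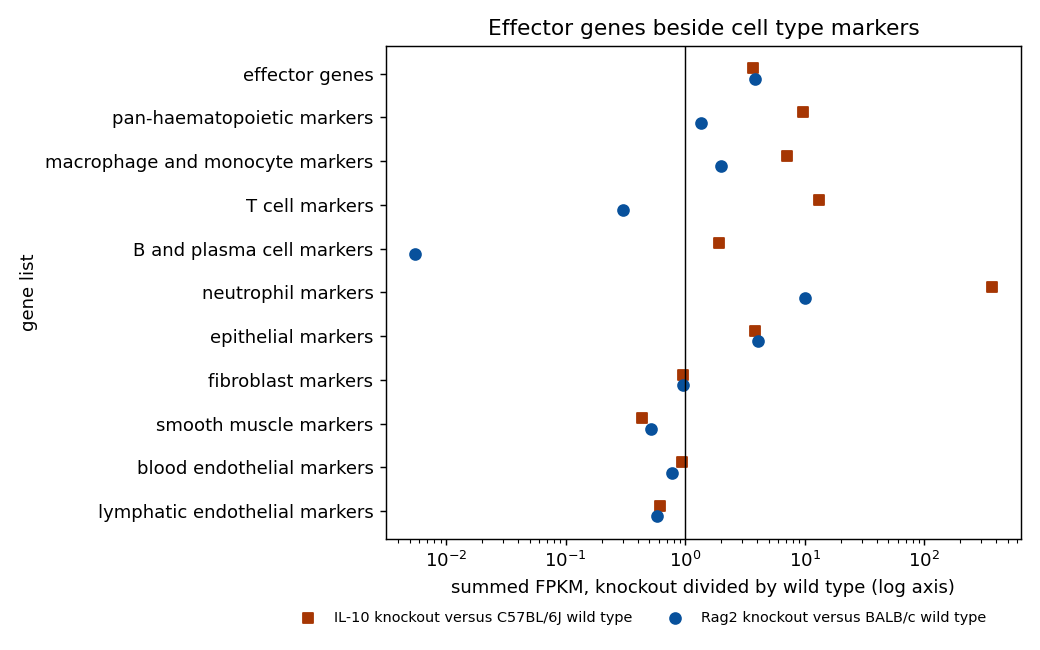
Summed FPKM of a gene list in the knockout divided by that in the wild type of the same strain (logarithmic x axis), for the 9 effector genes and 10 lists of cell type markers (y axis). Brown squares are the IL-10 comparison, blue circles the Rag2 comparison and the line is no difference, with 1 library per group. The effectors are at 3.73 and 3.84, epithelial markers at 3.85 and 4.09, and pan-haematopoietic markers at 9.68 and 1.37. Isg15 makes up 55.0% to 69.1% of the effector sum, and quotients of single effectors run from 1.17 to 5.63 (IL-10) and 1.53 to 17.4 (Rag2). Between BALB/c and C57BL/6J wild type the effector sums were 76.6 and 80.8 FPKM, and the epithelial sums 38.0 and 96.8.

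The mean log2(FPKM + 1) of the 9 genes was 2.38 and 3.95 in the BALB/c wild type and Rag2 knockout, and 2.67 and 3.94 in the C57BL/6J wild type and IL-10 knockout. Profiles of other genes were centred on their own mean over the 4 libraries and compared with it by Euclidean distance, for 8810 genes with at least 5 FPKM in the highest library. The nearest were Ly6c2, a surface protein gene of monocytes and other cells (distance 0.0759), S100a14, an epithelial calcium-binding protein gene (0.151), Casp1, the inflammasome protease gene (0.177), Lgals3bp, a secreted glycoprotein gene (0.186), and Eif2ak2, the kinase PKR (0.202). Ly6c2 had 6.25, 21.6, 7.91 and 21.7 FPKM in the BALB/c pair (wild type, knockout) and the C57BL/6J pair, in that order. Lgals3bp and Eif2ak2 are also in the list of other type I interferon-stimulated genes. The members themselves lay between 0.348 (Usp18) and 1.19 (Ifit2) from their own mean profile, and the median over all genes searched was 1.49. The 5 genes were nearer to that profile than any single member. They were picked from 8810 genes by this distance, which the members were not, so that order is no measure of likeness. The distances rest on 4 libraries that differ in strain, cell makeup and genotype together.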

How the data were processed

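Per the labels' protocols, a miRNeasy kit gave the RNA and a stranded TruSeq mRNA kit the libraries. FPKM per gene symbol were computed by the authors and deposited as 1 file per library. The submitters' processing notes name mm10, Cuffdiff 2.2.1, SAMtools 0.1.18, Bowtie2 2.2.8 and TopHat2 2.1.1. Annotation, strand setting and library scaling were not stated, so overlapping genes may share fragments.

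From the deposited values, log2(FPKM + 1) differences were taken for genes with at least 1 FPKM in either library (Python 3.11.15, pandas 2.3.3, scipy 1.17.1). Depth was read from values under 0.3 FPKM of single-transcript genes of at least 1000 nt: 117 to 142 genes per library lay within 10% of 1 fragment. Fragments of a member were estimated from its longest GENCODE transcript, and intervals cover counting error only. The computation was tested on simulated data. RefSeq GRCm38.p6 gave positions and promoters, and 23040 symbols matched it.

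The members and lists were chosen with earlier results of these data known. Named were all members, all genes of the small pathway lists, the 3 highest and the lowest of larger lists, markers used in the sort or highest in a list, neighbours by position, and the 5 most alike genes. 1 gene that this rule names is not reported here. Alternatives were other pseudocounts, filters, scalings and thresholds.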

Additional observations from a re-analysis of the deposited data

How the results depend on the processing

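All 9 effectors stayed above their wild type in both knockout comparisons under the other pseudocounts and scalings and without a filter, and so did the 8 that passed a filter of 5 FPKM, which Mx1 did not; Ifit2 was the lowest, down to 0.08 (IL-10) and 0.38 (Rag2) on the log2 scale. With 1 library per group, leaving out a replicate could not be done, and no paired analysis was possible because each group has 1 library and the labels carry no replicate numbers. Rescaling without small RNA genes moved the median of all genes to -0.13 and -0.14 in the IL-10 and Rag2 comparisons.

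Members: with a pseudocount of 0.1 the median log2 ratio was 1.71 (IL-10) and 2.02 (Rag2), and with 5 it was 0.66 and 0.85. At 4-fold 2 members remained in the IL-10 comparison. Between the wild types the median was 0.12 with a filter of 5 FPKM, which left 4 genes, in place of -0.31. Other interferon-stimulated genes at least 2-fold higher numbered 17 (IL-10) with a pseudocount of 5, 7 and 7 at 4-fold, and 1 between the wild types with a pseudocount of 0.1 or after rescaling.

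All genes higher: with a pseudocount of 5, 611 (IL-10), 278 (Rag2) and 56 (wild types); with 0.1, 477 (wild types); with a filter of 5 FPKM, 846 (IL-10) and 129 (wild types); rescaled, 532 (wild types). All genes lower: with 0.1, 787, 532 and 452; with 5, 182, 68 and 104; with a filter of 5 FPKM, 159 (Rag2); rescaled, 930, 663 and 440. The pseudocount moves these counts because it shrinks the ratios of low genes. Depth limits Mx1 most, at about 8 fragments in BALB/c wild type.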
